A study of Mus musculus with 36 samples.

Results

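The solute carrier family 25 was followed in the livers of 36 mice with or without a functional thyroid hormone receptor beta (THRB). The genes were chosen by name, as protein-coding genes called Slc25a followed by a number, with at least 100 counts summed over all libraries. Such a name was borne by 47 of the 54532 genes listed and 44 reached the minimum, among 17994 genes that were tested. The others were *Slc25a43* with 82 counts, *Slc25a41* with 5 and *Slc25a54* with 0, and these 3 have no further values. The mice were male, 2 to 3 months old, on chow and in 12 h of light and 12 h of darkness, and were bred from B6.129S1-Thrbtm1Df/J on a C57Bl/6NCrl background. The 18 THRB WT mice carried the altered *Thrb* allele on 1 chromosome (THRB+/-), so that the controls also had an altered allele, and the 18 THRB KO mice carried it on both (THRB-/-), in every tissue and in both receptor isoforms. Livers were taken at zeitgeber times (ZT, counted in hours from lights on) ZT2, ZT6, ZT10, ZT14, ZT18 and ZT22, from 3 mice per genotype and time.

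Slc25 proteins are the main gates for small molecules through the inner membrane of mitochondria. They exchange ADP for ATP, bring in phosphate, iron and cofactors, and pass citrate, malate, aspartate, ornithine and acylcarnitines between mitochondria and cytosol, which links the respiratory chain to gluconeogenesis, lipogenesis, urea synthesis and fatty acid oxidation in liver. A few members sit elsewhere, such as *Slc25a17* in peroxisomes and *Slc25a46* in the outer membrane. THRB is the main receptor for triiodothyronine in hepatocytes and binds to DNA as a transcription factor.

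Total counts ranged from 29063273 to 39913574 per THRB WT library and from 31008555 to 42530551 per THRB KO library. The 5 hepatocyte markers summed to between 60281 and 91766 CPM (counts per 1e6 counts of a library, after TMM scaling) in every library, and none of the 4 skeletal muscle and 4 fat markers reached 1 CPM on average. None of the tested markers of 7 cell types, liver and blood cells among them, was called for genotype (quasi-likelihood test of edgeR, p-values adjusted after Benjamini-Hochberg over all tested genes). The 5 erythroid markers were all lower in THRB KO, with log2 fold changes (THRB KO minus THRB WT) from -0.43 to -0.27. Their sum had a median of 330 CPM in THRB WT and 283 CPM in THRB KO. *Thrb* itself was counted at 28.9 ± 3.69 CPM in THRB WT against 31.5 ± 2.70 CPM in THRB KO livers (SD, n = 18 each). The table does not count the altered exon apart, so this gave no check of the labels. *Dio1*, a deiodinase gene induced by thyroid hormone, fell from 94.4 ± 32.0 to 48.3 ± 12.3 CPM (SD, n = 18 each; adjusted p = 4.19e-05 from the same test with sampling time in the model). In whole liver, fewer cells of a type and less RNA per cell cannot be told apart.

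The carriers together took 0.440 ± 0.0309% of all counts in THRB WT livers, and 0.450 ± 0.0274% in THRB KO (SD, n = 18 each). Their summed level was 4413 ± 333 CPM and 4494 ± 316 CPM, respectively. Libraries of the genotypes overlapped widely, from 3907 to 5159.9 and from 3924 to 4943 CPM. In THRB WT the mean sum was lowest at ZT22, at 4122 ± 211, and highest at ZT10, at 4722 ± 400.1 CPM (SD, n = 3 each). In THRB KO it was lowest at ZT2, at 4177 ± 273, and also highest at ZT10, at 4836 ± 88.7 CPM (SD, n = 3 each). These sums were not tested.

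Levels were compared between genes as CPM per kb of gene length. The length is the one given in the count table, and the length of the transcripts made in liver was not measured. A small number of carriers made up most of the total: in THRB WT livers the 5 highest held 60.0% of the summed CPM per kb and the 10 highest 80.1%. *Slc25a5*, an ADP/ATP translocase, was the highest at 295 ± 17.5 CPM per kb (SD, n = 18), followed by the glutathione carrier *Slc25a39* at 165 ± 12.9, the citrate carrier *Slc25a1* at 149 ± 11.1, the liver-enriched *Slc25a47* at 140.5 ± 66.8 and the dicarboxylate carrier *Slc25a10* at 66.9 ± 8.70. In CPM per kb *Slc25a5* stood apart from the rest, while *Slc25a39*, *Slc25a1* and *Slc25a47* lay within 1 SD of *Slc25a47* of each other. Before division by length, *Slc25a5* had 485 ± 28.8 CPM and *Slc25a39* 454 ± 35.6 CPM (SD, n = 18), so the distance between these 2 depended on the length. *Slc25a10* lay within its SD of the phosphate carrier *Slc25a3*, at 66.5 ± 3.41 CPM per kb. At the other end, *Slc25a2*, *Slc25a18* and *Slc25a31* had means below 1 CPM, and 13 members had means above 100 CPM.

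**Figure D1:**
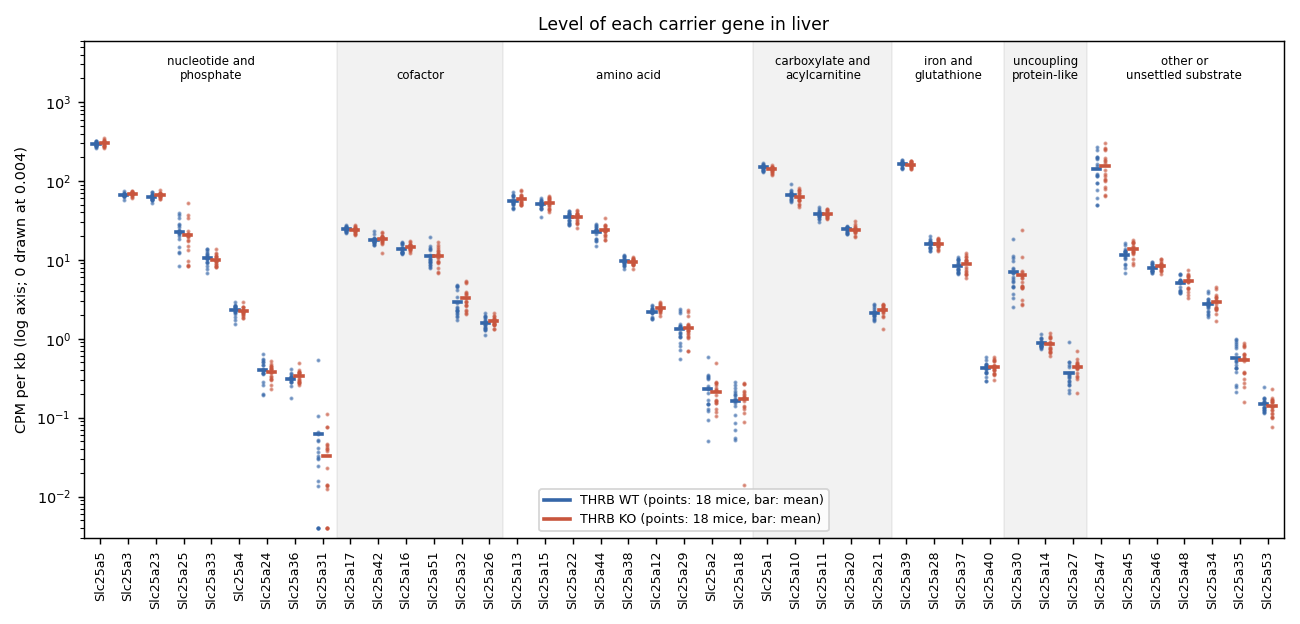
Level of 43 of the 44 carriers in CPM per kb (log axis), grouped by transported substrate. Each point is 1 of 18 mice per genotype and each bar a mean. The levels span from *Slc25a31* to *Slc25a5*, and the bars of both genotypes lie close to each other at nearly every gene.

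Where several carriers move the same substrate, 1 of them was usually far above the others in liver. The ADP/ATP translocase ratio, *Slc25a5* to *Slc25a4*, came to 131 ± 26.9 in THRB WT, and to 138 ± 21.5 in THRB KO livers (CPM per kb; SD, n = 18 each). Of the aspartate-glutamate carriers of the malate-aspartate shuttle, *Slc25a13* (citrin) exceeded *Slc25a12* (aralar) by a factor of 25.3 ± 3.20 and 24.3 ± 2.89, respectively. The ratio of the glutathione carriers *Slc25a39* and *Slc25a40* was 409 ± 100.1 and 381 ± 77.7. More even pairs were the iron importers, with a ratio of *Slc25a37* (mitoferrin 1) to *Slc25a28* (mitoferrin 2) that came to 0.528 ± 0.0715 and 0.560 ± 0.134, and *Slc25a10* with the oxoglutarate carrier *Slc25a11*, with 1.77 ± 0.239 and 1.66 ± 0.182. For each of these 5 pairs the ranges of the genotypes overlapped. By role, the 9 nucleotide and phosphate carriers held 33.9% of the summed CPM per kb in THRB WT, the 5 carboxylate and acylcarnitine carriers 20.6%, the 4 iron and glutathione carriers 13.9%, the 9 amino acid carriers 13%, the 7 members with other or unsettled substrates 12.4%, the 7 cofactor carriers 5.55% and the 3 uncoupling protein-like members 0.601%.

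To see which carriers differ between THRB KO and THRB WT livers over the whole day, genotypes were compared with sampling time in the model. The paper names raised serum triiodothyronine in such knockout mice as a limitation, and its part was not tested here. None of the 44 carriers passed an adjusted p of 0.05 in the quasi-likelihood test of edgeR, against 0.95% of all tested genes. Unadjusted p-values under 0.05 were found for 9 members (20.5%), 8 of them higher in THRB KO, against 12.1% of all genes, and DESeq2's likelihood ratio test called 2 members (10 unadjusted), against 1.97% of all genes to which it gave an adjusted p. The differences were small: 31 of 44 members had an absolute log2 fold change under 0.1 and 43 under 0.25. The log2 fold change (THRB KO minus THRB WT) was above 0 for 27 of 44 members and for 49.5% of all genes, with a median of 0.042 over the members and -0.0011 over all genes.

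**Figure D2:**
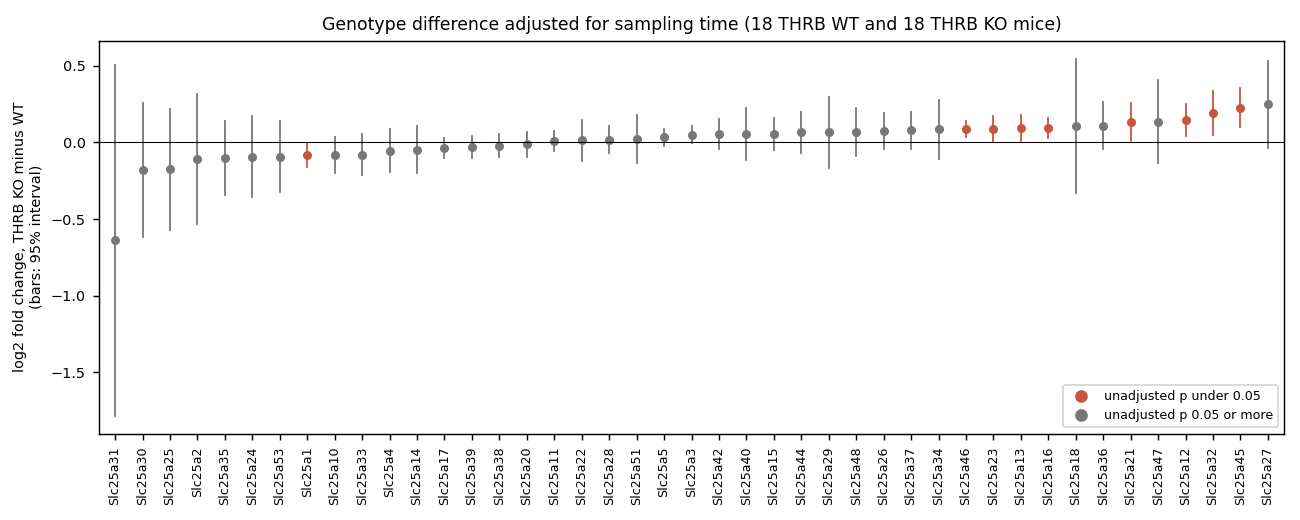
Log2 fold change of 43 of the 44 carriers between THRB KO and THRB WT livers with its 95% interval, adjusted for sampling time (18 mice per genotype). Red points have an unadjusted p under 0.05, which are 8 higher and 1 lower member, and none passed after adjustment in edgeR's quasi-likelihood test.

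*Slc25a45*, a carrier whose substrate has long been unsettled, had the lowest p. Its level in THRB WT livers ranged from 18.3 to 42.8 with a median of 32.2 CPM, and in THRB KO livers from 23.0 to 46.8 with a median of 35.7 CPM. The ranges overlapped, while the THRB KO mean was higher at 6 of 6 sampling times. At ZT6 the THRB WT mice had 30.5, 18.3 and 20.7 CPM and the THRB KO mice 32.1, 33.5 and 26.9 CPM, and at ZT10 26.8, 23.5 and 22.8 against 23.9, 31.1 and 23.0 CPM. Even at ZT6, the time with its lowest unadjusted p, 1 THRB WT mouse lay among the THRB KO mice. The log2 fold change was 0.23 (SE 0.063, unadjusted p = 0.00106, adjusted p = 0.0772, both from edgeR's quasi-likelihood fit). It passed with DESeq2's likelihood ratio test (adjusted p = 0.0361), and with edgeR without mouse a of THRB WT at ZT2 (adjusted p = 0.0464) or without mouse a of THRB WT at ZT6 (adjusted p = 0.0435). In the absence of other single mice its adjusted p stayed above 0.05. With the mouse letter at each time as a replicate block, its adjusted p was 0.0209 in edgeR's quasi-likelihood test. The block raised the calls over all genes from 171 to 387, and no label says that a letter marks shared mice, litters or days.

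*Slc25a46*, an outer membrane protein that takes part in the fusion and division of mitochondria, came next. It ranged from 29.5 to 41.6 with a median of 34.3 CPM in THRB WT and from 29.2 to 44.4 with a median of 36.9 CPM in THRB KO livers, again with a higher mean in THRB KO at 6 of 6 times. The mice were furthest apart at ZT14, with 31.6, 33.0 and 31.2 CPM in THRB WT and 37.3, 35.7 and 36.9 CPM in THRB KO. At ZT18 the mice had 29.5, 31.7 and 29.6 CPM in THRB WT and 29.2, 31.7 and 31.4 CPM in THRB KO. The genotypes did not overlap at ZT6 and ZT14, and overlapped at the other 4 times. The log2 fold change over the day was 0.087 (SE 0.026, unadjusted p = 0.00187, adjusted p = 0.10, both from edgeR's quasi-likelihood fit), and DESeq2's adjusted p was 0.0468.

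The next 4 by p were carriers of cofactors, aspartate and ATP (mean ± SD, n = 18 each). *Slc25a16*, a member linked to coenzyme A, had 66.1 ± 7.80 CPM in THRB WT against 70.4 ± 6.06 CPM in THRB KO livers (log2 fold change 0.095, SE 0.032, adjusted p = 0.173). *Slc25a12* had 16.2 ± 2.02 CPM in THRB WT against 17.9 ± 1.83 CPM in THRB KO livers (log2 fold change 0.15, SE 0.051, adjusted p = 0.194), and *Slc25a32*, the folate and FAD carrier, 17.8 ± 6.67 CPM in THRB WT against 20.1 ± 6.39 CPM in THRB KO livers (log2 fold change 0.19, SE 0.070, adjusted p = 0.223). For each of these 3 the THRB KO mean was higher at 5 of 6 times. *Slc25a23*, a calcium-regulated ATP-Mg/phosphate carrier, had 332 ± 28.8 CPM in THRB WT against 353 ± 23.3 CPM in THRB KO livers (log2 fold change 0.090, SE 0.039, adjusted p = 0.347) and a higher mean at 6 of 6 times. The mouse ranges of the genotypes overlapped for all 4. Of the remaining 3 with an unadjusted p under 0.05, *Slc25a13* and *Slc25a21*, the oxodicarboxylate carrier, had higher means in THRB KO and *Slc25a1* a lower one, with log2 fold changes of 0.091, 0.13 and -0.083 and adjusted p-values between 0.359 and 0.386. *Slc25a21* was named after its values were seen.

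**Figure D3:**
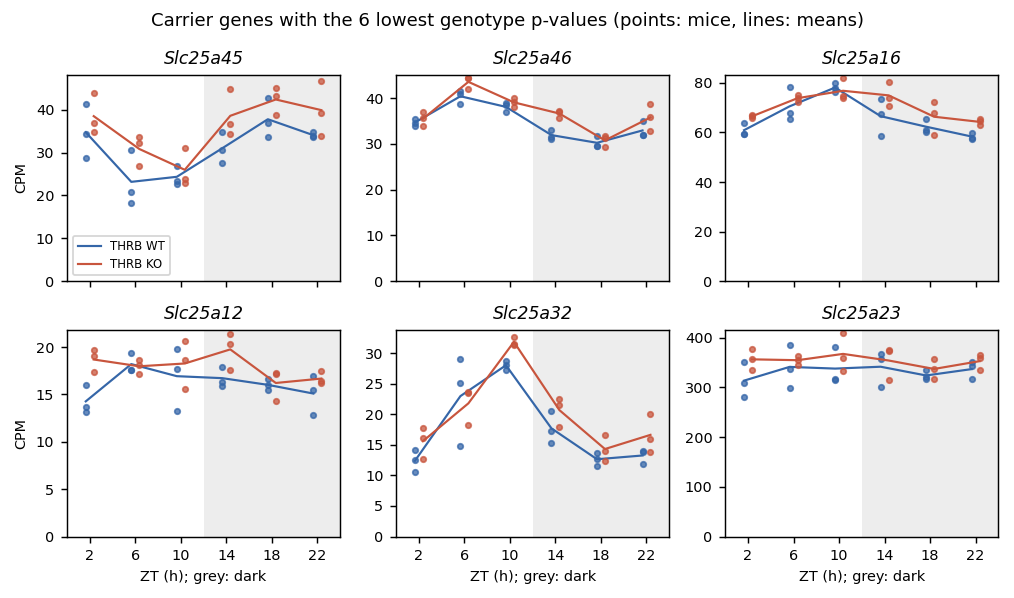
CPM of the 6 carriers with the lowest genotype p-values by sampling time. Points are single mice (3 per genotype and time), lines join the means, and grey marks darkness. In *Slc25a45*, *Slc25a46* and *Slc25a23* the THRB KO line runs above the THRB WT line at all 6 times, but the mice overlap at most of them.

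The carriers that feed lipogenesis, urea synthesis and fatty acid oxidation were also compared (mean ± SD, n = 18 each). *Slc25a1*, which exports citrate for fatty acid synthesis, had 322 ± 23.9 CPM in THRB WT against 304 ± 22.7 CPM in THRB KO livers. *Slc25a20*, which brings in acylcarnitines for beta-oxidation, had 118 ± 9.15 CPM in THRB WT against 117 ± 13.5 CPM in THRB KO livers (log2 fold change -0.013, 95% interval -0.096 to 0.069). *Slc25a15*, the ornithine carrier of the urea cycle, had 285 ± 33.6 CPM in THRB WT against 298 ± 41.3 CPM in THRB KO livers (log2 fold change 0.055, 95% interval -0.051 to 0.16). The 95% intervals of these last 2 include 0, as did those of the translocase *Slc25a5*, with 0.032, 95% interval -0.023 to 0.087, the phosphate carrier *Slc25a3* with 0.051, 95% interval -0.0030 to 0.10, the glutamate carrier *Slc25a22* with 0.014, 95% interval -0.12 to 0.15, the coenzyme A carrier *Slc25a42* with 0.055, 95% interval -0.045 to 0.15 and the dicarboxylate carrier *Slc25a10* with -0.082, 95% interval -0.20 to 0.036 on the log2 scale. They also did for *Slc25a4*, with -0.053, 95% interval -0.19 to 0.087, the oxoglutarate carrier *Slc25a11* 0.0082, 95% interval -0.056 to 0.072, the pyrimidine nucleotide carrier *Slc25a33* -0.081, 95% interval -0.22 to 0.054 and the glutathione carrier *Slc25a39* -0.031, 95% interval -0.10 to 0.040.

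Single sampling times gave no member an adjusted p under 0.05 in the quasi-likelihood test of edgeR over 264 tests (44 genes at 6 times), against 0.0195% of all such tests. Unadjusted p-values under 0.05 came up in 13 of 264 (4.92%), against 4.89% of all tests, and DESeq2's Wald test called 0, with 13 unadjusted, against 0.0498% of all its tests. Of these 13, 6 fell at ZT14, which are 13.6% of the members against 5.34% of all genes at that time, and 0 at ZT10. Of these 6, *Slc25a31* had 43 of its 125 counts in 1 mouse of that time. The lowest was *Slc25a12* at ZT2, with 13.7, 16.0 and 13.1 CPM in THRB WT and 17.4, 19.0 and 19.7 CPM in THRB KO mice, which did not overlap (log2 fold change 0.39, SE 0.12, unadjusted p = 0.00315, adjusted p = 0.864 with edgeR's quasi-likelihood fit). *Slc25a10* at ZT6 went the other way, with 231, 315 and 246 against 218, 216 and 162 CPM (log2 fold change -0.41, SE 0.13, unadjusted p = 0.00499, adjusted p = 0.893 with edgeR's quasi-likelihood fit). The interaction of genotype and time called 0 members with edgeR, 0 with an unadjusted p under 0.05 and 0 with DESeq2. Over all genes the interaction called 0%, and 2.69% had an unadjusted p under 0.05.

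More carriers were called for time of day than for genotype. Sampling time passed an adjusted p of 0.05 for 16 of 44 members in THRB WT (36.4%, against 26.4% of all genes) and for 14 in THRB KO (31.8%, against 24.9%). The lists shared 12 members, 75% of those in THRB WT and 85.7% of those in THRB KO, and 27.3% of all members against 18.9% of all genes. The shared members were *Slc25a11*, *Slc25a13*, *Slc25a16*, *Slc25a29*, *Slc25a32*, *Slc25a35*, *Slc25a37*, *Slc25a45*, *Slc25a46*, *Slc25a47*, *Slc25a48* and *Slc25a51*. *Slc25a26*, *Slc25a28* and *Slc25a38* were among the 4 that passed in THRB WT, and *Slc25a5* and *Slc25a15* in THRB KO, without passing in the other genotype, and no interaction was called for any of these 6. With all mice of 1 letter left out, so that 2 per group remained, 8 to 9 members were called in THRB WT and 5 to 8 in THRB KO. By role, time passed in both genotypes for 5 of 7 members with other or unsettled substrates, 3 of 7 cofactor carriers, 2 of 9 amino acid carriers, 1 of 5 carboxylate and acylcarnitine carriers, 1 of 4 iron and glutathione carriers, and 0 of 9 nucleotide and phosphate and 0 of 3 uncoupling protein-like members. The fold between the highest and the lowest group mean in THRB WT had a median of 1.34 over the 44 members and 1.52 over all genes. Among members called in both genotypes it was 1.55, against 1.66 for all genes called in both.

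*Slc25a47*, a carrier made mainly in liver, combined a high level with a large change over the day. In THRB WT it was highest at ZT6, with 608, 814 and 494 CPM, and lowest at ZT18, with 279.7, 148 and 233 CPM. In THRB KO it was highest at ZT10, with 912, 509 and 753 CPM, and lowest at ZT2, with 191, 361 and 196 CPM. Every mouse at the high time lay above every mouse at the low time in each genotype. Here and for the genes below, these times were picked from the same mice, so a lack of overlap is no separate support. *Slc25a17*, not called for time, also had none in THRB WT, with 74.6 to 79.6 CPM at ZT22 and 63.7 to 65.5 CPM at ZT6. The folds were 2.90 in THRB WT and 2.91 in THRB KO (adjusted p = 0.000545 and 0.000834). Mice of 1 group differed more in *Slc25a47* than in most carriers, with a within-group SD of 0.44 in THRB WT (log2 CPM) against a median of 0.19 over the 41 members with at least 1 CPM.

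*Slc25a29*, a carrier of basic amino acids, lies beside it. In THRB WT mice it had 3.76, 6.15 and 5.94 CPM at ZT14 and 2.12, 1.89 and 1.44 CPM at ZT22, which did not overlap. In THRB KO mice it had 5.66, 3.39 and 5.96 CPM at ZT14 and 2.81, 1.80 and 3.32 CPM at ZT6. The THRB KO mice of these times also did not overlap, with the lowest at ZT14 close above the highest at ZT6. The folds were 2.91 in THRB WT and 1.89 in THRB KO (adjusted p = 0.00155 and 0.0386). The gene models in the count table are both on chromosome 12 of GRCm38. They run from 108825873 to 108835883 on the minus strand for *Slc25a29* and from 108836046 to 108856815 on the plus strand for *Slc25a47*. The first base of the *Slc25a47* model lies 163 bases after the last base of the *Slc25a29* model. No other pair of carriers were neighbours in this way. Promoter sequences are shown for this pair, for *Slc25a45* and for *Slc25a13*, because their levels moved with time in both genotypes and the pair shares a neighbourhood. They were taken from RefSeq (GRCm38.p6) and cover 250 bases before to 50 bases after a start site, 5′ to 3′ on the strand of the gene. Capitals mark the E-box CACGTG, to which clock proteins bind, or the half-site AGGTCA of nuclear receptors, on either strand.
*Slc25a47* (chr12:108850879-108851178, plus strand): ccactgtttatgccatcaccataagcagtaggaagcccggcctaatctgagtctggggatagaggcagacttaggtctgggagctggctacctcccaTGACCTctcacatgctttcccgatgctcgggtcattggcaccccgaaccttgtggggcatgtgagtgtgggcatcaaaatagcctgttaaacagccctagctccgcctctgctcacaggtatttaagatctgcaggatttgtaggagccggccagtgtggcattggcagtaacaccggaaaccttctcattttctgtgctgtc
*Slc25a29* (chr12:108835827-108836126, minus strand): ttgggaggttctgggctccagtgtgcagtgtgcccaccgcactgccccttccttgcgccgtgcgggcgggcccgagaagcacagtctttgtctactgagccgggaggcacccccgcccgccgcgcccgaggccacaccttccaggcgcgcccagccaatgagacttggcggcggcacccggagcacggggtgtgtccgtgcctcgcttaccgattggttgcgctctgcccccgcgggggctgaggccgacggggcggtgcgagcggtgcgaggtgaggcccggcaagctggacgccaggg
*Slc25a45* (chr19:5877572-5877871, plus strand): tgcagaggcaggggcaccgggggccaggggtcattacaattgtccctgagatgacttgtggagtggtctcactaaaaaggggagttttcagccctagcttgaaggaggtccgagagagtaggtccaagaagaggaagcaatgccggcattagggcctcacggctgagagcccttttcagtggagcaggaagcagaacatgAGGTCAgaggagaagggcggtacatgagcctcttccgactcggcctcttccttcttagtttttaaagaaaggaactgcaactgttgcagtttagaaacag
*Slc25a13* (chr6:6217124-6217423, minus strand): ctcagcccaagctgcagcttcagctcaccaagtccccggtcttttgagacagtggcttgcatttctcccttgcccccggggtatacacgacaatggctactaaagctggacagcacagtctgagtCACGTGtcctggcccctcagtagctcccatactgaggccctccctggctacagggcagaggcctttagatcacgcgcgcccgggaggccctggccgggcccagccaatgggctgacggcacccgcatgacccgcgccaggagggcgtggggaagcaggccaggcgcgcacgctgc
The window of *Slc25a29* holds the space between both gene models, and that of *Slc25a47* lies at a RefSeq start site inside the longer model of the count table. That window begins at 108850879, and the model at 108836046. The distance of 163 bases is therefore between the gene models and not between the start sites shown for this pair. AGGTCA begins 153 bases before the start in *Slc25a47* (on the opposite strand) and 50 bases before it in *Slc25a45*, and CACGTG begins 125 bases before it in *Slc25a13*. *Slc25a29* holds none of the motifs. All 4 genes were chosen as moving with time, so they cannot show a link between motif and time. *Slc25a11*, *Slc25a16* and *Slc25a48* were also called for time in both genotypes, and their promoter windows, not shown, hold none of the motifs. The 4 windows shown therefore hold a motif more often than all windows of such carriers. Of those with AGGTCA, *Slc25a47* had its highest means at ZT6 and ZT10 and *Slc25a45* at ZT18.

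Promoters were found for 34 of 44 carriers, and for 7 of the 15 that were rhythmic in both genotypes. Among those not matched were *Slc25a2*, *Slc25a26*, *Slc25a27*, *Slc25a32*, *Slc25a35*, *Slc25a37*, *Slc25a44*, *Slc25a46* and *Slc25a51*. CACGTG was present, on both strands since it is its own complement, in 7 of the 34 genes (*Slc25a1*, *Slc25a13*, *Slc25a14*, *Slc25a15*, *Slc25a31*, *Slc25a33* and *Slc25a36*), which are 8 of their 44 promoter windows (18.2%), against 7.15% of all 32851 windows. AGGTCA was present in *Slc25a34*, *Slc25a39*, *Slc25a45* and *Slc25a47*, in 9.09% of the carrier windows against 16.3% of all windows. Of these carriers, *Slc25a34* and *Slc25a39* were called for time in neither genotype. The D-box TTATGTAA, bound by PAR-bZIP factors, was in 0 carrier windows and 0.938% of all. Both were searched on both strands, and no match in a carrier overlapped another motif. Of the 7 genes with CACGTG, *Slc25a13* and *Slc25a15* were called for time in at least 1 genotype. The same held for 18 of all 44 carriers and for 5825 of all 17994 tested genes.

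The other members with large changes over the day had peaks at different times. *Slc25a32*, which brings folate into mitochondria, was highest at ZT10, with 28.7, 27.2 and 28.0 CPM in THRB WT and 32.7, 31.3 and 31.5 CPM in THRB KO mice. Its lowest times were ZT2 in THRB WT, with 10.5, 14.1 and 12.6 CPM, and ZT18 in THRB KO, with 12.4, 14 and 16.5 CPM. All mice at ZT10 were far above these, and the folds were 2.26 in THRB WT and 2.22 in THRB KO (adjusted p = 5.30e-06 and 5.84e-05). *Slc25a35*, a carrier of unsettled substrate, ran in the opposite direction at a low level. In THRB WT it had 3.39, 3.0 and 3.60 CPM at ZT22 and 0.788, 0.965 and 1.55 CPM at ZT6, and in THRB KO 2.08, 2.90 and 3.29 CPM at ZT2 and 0.897, 1.40 and 0.587 CPM at ZT6. High and low mice did not overlap in either genotype, and the folds were 3.02 in THRB WT and 2.87 in THRB KO (adjusted p = 0.000289 and 0.000601). *Slc25a35* shares 31.3% of its exon bases with *Rangrf* on the opposite strand, and the libraries do not keep the strand, so reads of these genes cannot be told apart there. *Rangrf* had 127 counts over all libraries, and *Slc25a35* 2489.

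*Slc25a45* was highest at ZT18 in both genotypes, with 42.8, 36.8 and 33.7 CPM in THRB WT and 45.1, 43.3 and 38.7 CPM in THRB KO mice. The lowest mean was at ZT6 in THRB WT and at ZT10 in THRB KO, with the values given above, and these mice lay below all those of ZT18. The folds were 1.63 in THRB WT and 1.63 in THRB KO (adjusted p = 0.00382 and 0.00922). *Slc25a51*, which carries NAD+ into mitochondria, was highest at ZT10, with 106, 75.7 and 56.3 CPM in THRB WT and 71.4, 84.0 and 79.3 CPM in THRB KO. It was lowest at ZT22 in THRB WT, with 47.9, 50.5 and 51.8 CPM, and at ZT2 in THRB KO, with 43.7, 59.2 and 38.5 CPM. High and low mice did not overlap, although the THRB WT mice at ZT10 were spread widely, and the folds were 1.59 in THRB WT and 1.66 in THRB KO (adjusted p = 0.00577 and 0.00657). *Slc25a48*, a carrier linked to choline, was highest at ZT6, with 18.5, 22.4 and 22.2 CPM in THRB WT and 22.3, 18.9 and 19.3 CPM in THRB KO. It was lowest at ZT14 in THRB WT, with 12.9, 13.6 and 15.2 CPM, and at ZT18 in THRB KO, with 11.1, 12.2 and 14.4 CPM. High and low mice did not overlap, and the folds were 1.51 in THRB WT and 1.61 in THRB KO (adjusted p = 0.0457 and 0.0472). Its calls were the least stable of these 8, since they passed in 17 of 36 fits that left out 1 mouse for THRB WT and in 13 of 36 for THRB KO. The call of *Slc25a29* in THRB KO passed in 28 of 36 such fits and that of *Slc25a16* in 22 of 36. Without mouse a of THRB KO at ZT2, 9 members were called in THRB KO.

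*Slc25a37* (mitoferrin 1) brings iron into mitochondria for heme and iron-sulfur clusters. In THRB WT it had 59.7, 61.5 and 65.0 CPM at ZT10 and 41.7, 44.9 and 39.4 CPM at ZT22. In THRB KO it had 60.1, 60.7 and 74.0 CPM at ZT10 and 39.7, 43.1 and 39.9 CPM at ZT2. High and low mice did not overlap, and the folds were 1.48 in THRB WT and 1.59 in THRB KO (adjusted p = 0.0151 and 0.00186). Because red cell precursors also use mitoferrin 1, the 5 erythroid markers were summed beside it. Their median was highest at ZT10 in both genotypes, at 493 CPM in THRB WT and 447 CPM in THRB KO. It was 329 CPM at ZT22 in THRB WT and 249.6 CPM at ZT2 in THRB KO. In THRB WT it was lowest at ZT14, at 276 CPM, and 443 CPM at ZT2, while *Slc25a37* had means of 57.0 and 43.6 CPM. In THRB KO it was 269 CPM at ZT14, while *Slc25a37* had means of 60.9 CPM at ZT14 and 40.9 CPM at ZT2. All 5 markers were detected, and none of them was called for time. Their sum ranged from 219 to 983 CPM in THRB WT and from 145 to 646 CPM in THRB KO libraries. Their part in the change of *Slc25a37* was not tested. The related *Slc25a28* passed in THRB WT (fold 1.29, adjusted p = 0.0328) and had 1.2 in THRB KO (adjusted p = 0.256).

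The carriers of the malate-aspartate shuttle had smaller folds. *Slc25a13*, the aspartate-glutamate carrier of hepatocytes, was highest at ZT10 in THRB WT, with 243, 277 and 249.5 CPM, and lowest at ZT2, with 171, 194 and 166 CPM. In THRB KO it was highest at ZT14, with 248, 284 and 254 CPM, and lowest at ZT2, with 197, 207 and 192 CPM. The mice did not overlap, and the folds were 1.45 in THRB WT and 1.32 in THRB KO (adjusted p = 0.00457 and 0.00549). Its partner in the malate-aspartate shuttle, *Slc25a11*, had smaller folds still, 1.29 in THRB WT and 1.22 in THRB KO (adjusted p = 0.0103 and 0.0296). Of the carriers with high levels, *Slc25a47* (above) and *Slc25a10* had folds in THRB WT of 2.90 and 1.31, and *Slc25a10* was not called. The fold in THRB WT was 1.13 for *Slc25a5*, 1.09 for *Slc25a39*, 1.11 for *Slc25a1*, 1.10 for *Slc25a3* and 1.14 for *Slc25a20*, and none of these 5 passed in THRB WT. In THRB KO, *Slc25a5* passed with a fold of 1.2 (adjusted p = 0.0179) and the ornithine carrier *Slc25a15* with 1.34 (adjusted p = 0.0180). *Slc25a46* and *Slc25a16*, named above for genotype, were called too: the folds were 1.34 in THRB WT and 1.42 in THRB KO (adjusted p = 3.65e-05 and 2.33e-05) for *Slc25a46* and 1.34 in THRB WT and 1.2 in THRB KO (adjusted p = 0.00116 and 0.0408) for *Slc25a16*.

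**Figure D4:**
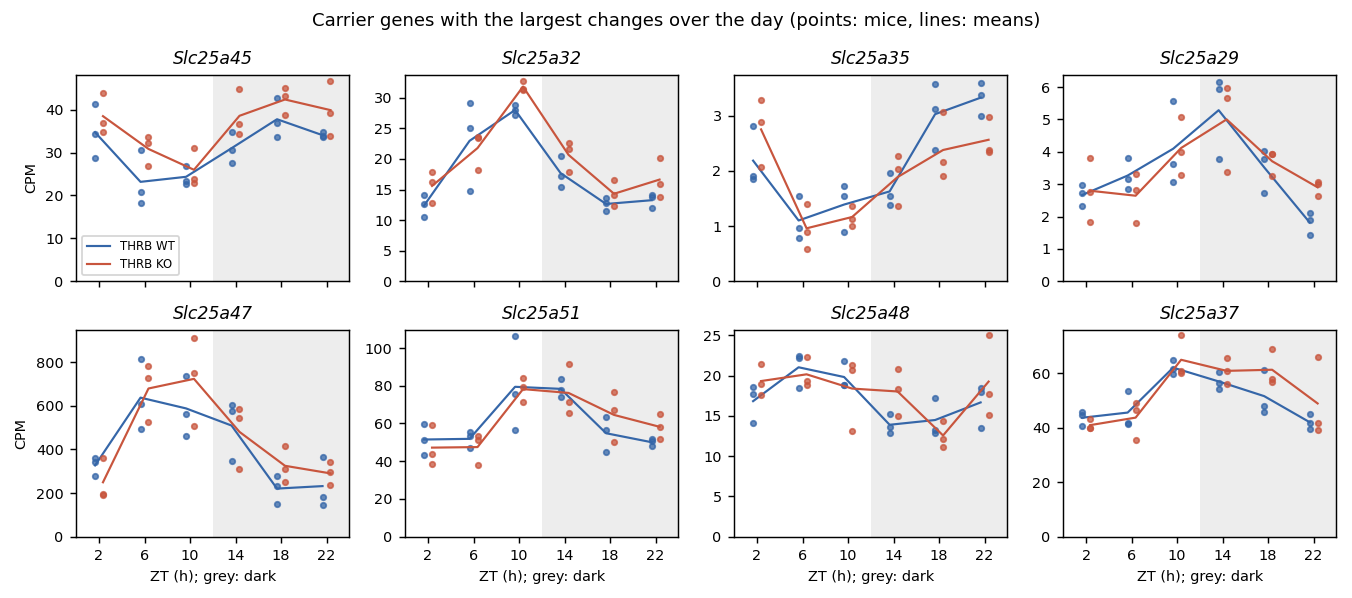
CPM of the 8 carriers with the largest folds over the day in THRB WT among those called for time in both genotypes. Points are single mice (3 per genotype and time), lines join the means, and grey marks darkness. The mean of *Slc25a32* is highest at ZT10 and that of *Slc25a45* at ZT18 in both genotypes, while *Slc25a47* is highest at ZT6 (THRB WT) or ZT10 (THRB KO) and *Slc25a35* at ZT22 (THRB WT) or ZT2 (THRB KO).

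A pair of carriers had a large spread between mice of 1 group and no call for time. *Slc25a25*, a calcium-regulated ATP-Mg/phosphate carrier, ranged from 66.2 to 307 with a median of 177 CPM in THRB WT and from 64.8 to 408 with a median of 156 CPM in THRB KO livers. At ZT10 alone, THRB WT mice had 307, 66.2 and 98.9 CPM and THRB KO mice 64.8, 289 and 142 CPM. Mice of the same time and genotype lay far apart and the genotypes overlapped, and neither time nor genotype was called (adjusted p for time 0.747 in THRB WT and 0.548 in THRB KO). *Slc25a30*, an uncoupling protein-like member named after its values were seen, ranged from 11.5 to 84.9 with a median of 26.8 CPM in THRB WT and from 12.3 to 108 with a median of 22.7 CPM in THRB KO. The within-group SD (log2 CPM) was 0.70 and 0.66 for *Slc25a30* and 0.55 and 0.80 for *Slc25a25*, in THRB WT and THRB KO, against medians of 0.19 and 0.18 over 41 members. The 95% interval of the genotype difference ran from -0.57 to 0.22 for *Slc25a25* and from -0.61 to 0.26 for *Slc25a30* (log2).

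The members not yet described had few counts or no call for time in both genotypes. *Slc25a38*, a glycine carrier used in heme synthesis, was called for time in THRB WT with a fold of 1.30 (adjusted p = 0.0145 from the quasi-likelihood test of edgeR), and had 1.25 in THRB KO (adjusted p = 0.0964). *Slc25a17*, the peroxisomal carrier of nucleotide cofactors, had 69.9 ± 4.8 CPM in THRB WT against 68.2 ± 5.68 CPM in THRB KO livers and a within-group SD (log2 CPM) of 0.069 in THRB WT. The calcium-regulated *Slc25a24*, a relative of *Slc25a25*, had 1.39 ± 0.414 CPM in THRB WT against 1.30 ± 0.276 CPM in THRB KO livers, and *Slc25a36*, a pyrimidine nucleotide carrier, 2.99 ± 0.472 CPM in THRB WT against 3.23 ± 0.572 CPM in THRB KO livers. *Slc25a31*, a translocase of testis, had 0.131 ± 0.262 CPM in THRB WT against 0.0699 ± 0.0662 CPM in THRB KO livers and was the 1 member with an absolute log2 fold change of 0.25 or more (-0.64, SE 0.56, adjusted p = 0.716). This rested on mouse b of THRB WT at ZT14, which held 43 of its 125 counts. Without it the THRB WT level of *Slc25a31* was 0.0703 ± 0.0607 CPM, and the log2 fold change was 9.4e-05. DESeq2 gave it no adjusted p. *Slc25a18*, a glutamate carrier, had 0.311 ± 0.130 CPM in THRB WT against 0.333 ± 0.125 CPM in THRB KO livers, and *Slc25a2*, an ornithine carrier, 0.317 ± 0.175 CPM in THRB WT against 0.291 ± 0.124 CPM in THRB KO livers. A further 6 (*Slc25a14*, *Slc25a27*, *Slc25a34*, *Slc25a40*, *Slc25a44* and *Slc25a53*) had mean levels in THRB WT from 1.18 CPM for *Slc25a53* to 81.2 CPM for *Slc25a44*, and adjusted p-values for genotype of 0.868, 0.487, 0.788, 0.856, 0.755 and 0.814, in that order. Genes in this paragraph were named after their values were seen.

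A cosine with a period of 24 h was fitted to each genotype to give peak times. A rhythm passed an adjusted p of 0.05 for 18 members in THRB WT (40.9%, against 35.1% of all genes), for 18 in THRB KO (40.9%, against 31.5%), and for 15 in both (34.1%, against 24.5%), which are 83.3% of each list. In THRB WT the fitted peaks of these 15 fell between ZT6 and ZT12 for 7, between ZT12 and ZT18 for 6, between ZT18 and ZT24 for 2 and between ZT0 and ZT6 for 0. Of all 4411 genes rhythmic in both genotypes, 32.0%, 19.5%, 27.2% and 21.3% peaked in these windows. *Slc25a26*, the S-adenosylmethionine carrier, and *Slc25a46* peaked first, at ZT 6.50 ± 0.691 and 6.50 ± 0.604 h in THRB WT (SE). *Slc25a47*, *Slc25a32* and *Slc25a16* followed at 8.86 ± 0.608, 9.32 ± 0.560 and 9.72 ± 0.624 h, and *Slc25a13*, *Slc25a11*, *Slc25a29*, *Slc25a51* and *Slc25a37* lay between 11 and 12.4 h, around lights off. *Slc25a45* and *Slc25a35* came last, at 20.2 ± 0.779 and 20.6 ± 0.636 h. The amplitude (log2, from mean to peak) was largest for *Slc25a47*, at 0.85 ± 0.14, and *Slc25a35*, at 0.78 ± 0.13. *Slc25a26* was named after its values were seen.

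The fitted peak was later in THRB KO for 14 of the 15 (93.3%), and later for 65.6% of all genes rhythmic in both. The median difference was 0.684 h over the 15, with a highest of 2.73 h, and 0.390 h over all genes. Genes of 1 mouse share its timing, so these are not independent shifts. The test of a difference in rhythm between genotypes called 0 of 44 members and 0% of all genes with edgeR, and at an unadjusted p under 0.05 there was 1 member (2.27%), against 3.07% of all genes. The rhythm difference was not run in DESeq2. The 1 member was *Slc25a26*, which peaked at 6.50 ± 0.691 h in THRB WT and 9.23 ± 1.19 h in THRB KO, with amplitudes of 0.29 ± 0.053 and 0.17 ± 0.053 (unadjusted p = 0.0390, adjusted p = 1.0 from the quasi-likelihood test of edgeR). For *Slc25a45*, which had the lowest genotype p, the peaks of 20.2 ± 0.779 and 20.3 ± 0.865 h and the amplitudes of 0.34 ± 0.070 and 0.31 ± 0.070 nearly coincided.

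**Figure D5:**
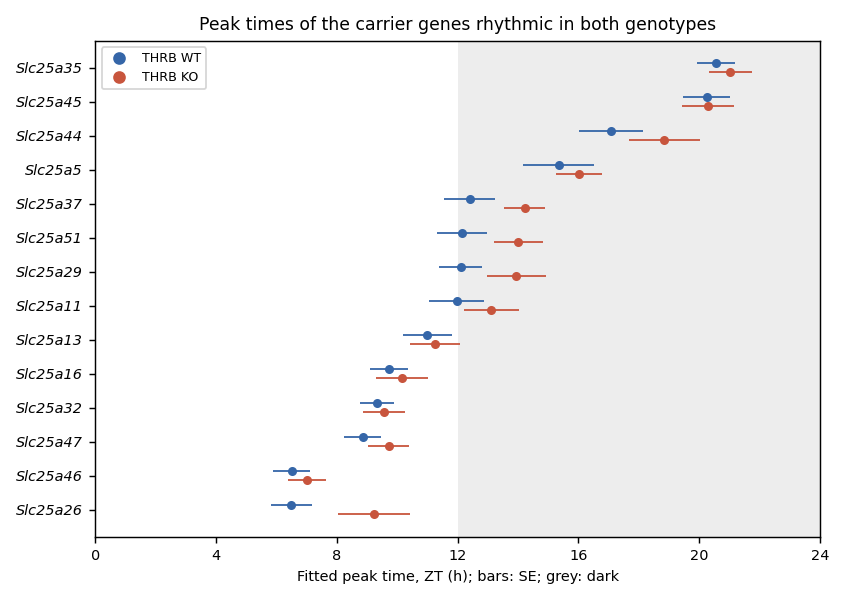
Fitted peak time (ZT, h) of 14 of the 15 carriers rhythmic in both genotypes, with SE bars, for THRB WT (blue) and THRB KO (red). No drawn peak falls before ZT6, and the THRB KO points lie to the right of the THRB WT points, with SE bars that overlap for most.

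Other transport proteins of mitochondria and the enzymes on either side of the carriers were counted for comparison. Both lists were chosen with earlier results of these data known. Over all tested genes, 0.95% were called for genotype and 18.9% for time in both genotypes. Of 24 other transport genes 22 were tested (*Ucp1* and *Ucp3* were not), 1 was called higher in THRB KO and 0 lower, and time passed in both genotypes for 6. The gene that rose was *Letm1*, a potassium/proton exchanger of the inner membrane, with 107 ± 7.75 CPM in THRB WT and 125 ± 8.46 CPM in THRB KO livers (SD, n = 18 each; log2 fold change 0.23, SE 0.031, adjusted p = 1.38e-05). Of 16 shuttle and partner enzymes 1 was called higher, *Gpd2*, the mitochondrial enzyme of the glycerol-3-phosphate shuttle, with 27.7 ± 5.66 CPM in THRB WT and 35.4 ± 4.52 CPM in THRB KO livers (log2 fold change 0.36, SE 0.066, adjusted p = 0.00202). Leaving out letter a or letter c gave *Gpd2* an adjusted p of 0.0534 or 0.0713 (the quasi-likelihood test of edgeR). The median log2 fold change was 0.030 over the 22 transport genes and 0.032 over the 16 enzymes, beside 0.042 over the carriers. Time passed in both genotypes for transport genes that included *Mcu*, *Micu2*, *Slc8b1*, *Vdac2* and *Abcb8*, of which *Mcu* is the pore of the calcium uniporter, and for the enzymes *Acly*, *Got1*, *Cpt1a*, *Cpt2*, *Crat* and *Pck1*. Of the partners of the citrate and acylcarnitine carriers, *Acly* had a fold over the day of 2.71 and *Cpt1a* of 2.20 in THRB WT, beside 1.11 for *Slc25a1* and 1.14 for *Slc25a20*. These are descriptions of each gene, and the differences between the genes were not tested.

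Reads could be shared with other genes for some of the carriers. Of the 44 members 14 share exon bases with another gene, and for 1, *Slc25a35*, this was 20% or more of its exon bases. *Slc25a18* shares 1.67% with *Atp6v1e1*, which had 108131 counts against 397, and *Slc25a26* 3% with *Lrig1*, which had 30893 against 9558. Both partners lie on the opposite strand, which the libraries do not keep. The other partners had fewer counts than the member. Transcripts of other genes that align to a member over at least 80% of their own length with at least 90% identity were found for 8 members. Counts on any 1 such copy reached at most 1.15% of those of the member, in *Slc25a40*. The settings for shared reads are not known, and reads left out of both genes would not show in these counts.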

How the data were processed

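Liver poly(A) RNA of 36 mice was sequenced from non-directional libraries. Per the labels and the study's methods, the authors aligned paired reads with HISAT2 to GRCm38 and deposited raw counts per gene from featureCounts (versions and settings for shared reads not given in the sources used here). Samples were grouped by the genotype and time in their labels. Genes with at least 100 summed counts were kept, scaled by TMM and tested in R 4.3.3 with edgeR 4.0.16 (quasi-likelihood tests, Benjamini-Hochberg adjustment over all tested genes, threshold 0.05). Genotype was tested with time as a factor, at single times and as an interaction, and time within each genotype from the same 12-group fit, which shares 1 estimate of the spread. Rhythms were fitted as a cosine with a period of 24 h. Log2 CPM used a prior count of 2, and a fold over the day is the ratio of the highest to the lowest group mean. Between 29063273 and 42530551 counts per library lay behind each value. Alternatives were DESeq2 1.42.0, other scalings and filters, left-out mice and a replicate block. Transcripts were compared with BLAST 2.17.0+, promoter motifs were searched with Python 3.11.15 and figures drawn with matplotlib 3.10.9. The fits were tested on simulated data. The members and gene lists were chosen with earlier results of these data known. Named genes were any called for genotype, the 6 lowest genotype p-values, the 8 largest folds over the day among members called in both genotypes, the 5 highest levels per kb, and a list of textbook carriers. Others are marked as chosen after their values were seen. Individual values of a small number of genes are not reported here. No column of per-sample values was left out.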

Additional observations from a re-analysis of the deposited data

How the results depend on the processing

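Of the counts of calls and summed levels recomputed under the alternatives, 193 stayed close to the reported value (within 1.5 times for a count and 1 SD for a level) and 15 did not. The count of carriers called for genotype, 0 as reported, was 2 with DESeq2's likelihood ratio test (306 over all genes, against 171 with edgeR) and 1 (*Slc25a45*) both without mouse a of THRB WT at ZT2 and without mouse a of THRB WT at ZT6. With the mouse letter as a replicate block it was also 1 (*Slc25a45*, log2 fold change 0.23, adjusted p = 0.0209 with edgeR's quasi-likelihood test), while the block raised the calls over all genes from 171 to 387. The letters were not treated as pairs, since no label says that a letter marks shared mice, litters or days. Whether they are pairs cannot be told, and the 0 carriers called hold for the fit without a block. The deviations of same-letter mice correlated above 0.1 in 9 of 18 pairs, with a median of 0.102 and a range from -0.038 to 0.225. The numbers in their label descriptions lie close together for most pairs, and no label says what they stand for. As a hint from the data, 15 of 18 THRB WT libraries correlated best with their own letter. Leaving out all mice of 1 letter, which leaves 2 per group, gave 8 to 9 members called for time in THRB WT and 5 to 8 in THRB KO, and 11 to 13 for the rhythm in THRB KO. With single mice left out these were 12 to 17 in THRB WT and 9 to 14 in THRB KO, with the lowest, 9, without mouse a of THRB KO at ZT2. Of the named carriers, *Slc25a48*, *Slc25a37*, *Slc25a45*, *Slc25a47*, *Slc25a29* and *Slc25a51* each lost the call for time in THRB WT without at least 1 letter. The count over the other transport and enzyme genes was 1 without letter a and 1 without letter c, in place of 2. *Slc25a25* changed sign for genotype, from -0.17 to 0.041 without letter a (log2; -0.32 without letter c), and *Slc25a31* from -0.64 to 9.4e-05 without mouse b of THRB WT at ZT14. The single-mouse fits for time and for *Slc25a31* and the alternatives for the other gene lists were chosen after seeing the data. The number of mice limits what could be seen in carriers with a large spread: for *Slc25a25* the 95% interval of the genotype difference ran from -0.57 to 0.22 (log2). The causes of these changes were not tested.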
